A study of Sus scrofa with 20 samples.

Results

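Carbonic anhydrase 4 (CA4, ENSSSCG00000023186) and the choline transporter-like protein 4 (SLC44A4, ENSSSCG00000001419) are 2 genes of the 21306 listed for both breeds in the testis RNA sequencing of 20 boars. Both were selected on their difference in these same libraries between boars whose sperm had a high DNA fragmentation index (DFI) and boars with a low one, so their high against low values are given as a description without a test. Of the 14636 genes that passed the filter on low counts over all boars, both were among those kept.

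The libraries came from whole testis of Norsvin Landrace and Norsvin Duroc boars, with 1 library per boar. There were 5 Landrace boars with low DFI (0.62 to 1.7%) and 4 with high DFI (5.58 to 8.04%), and 5 Duroc boars with low DFI (1.05 to 1.13%) and 6 with high DFI (4.13 to 5.63%). The groups are the extremes of DFI in each breed, and the labels give neither the age nor the litter of a boar. The libraries held 18086448 to 51782156 counted reads, the smallest being Landrace high 1. All 4 high and 2 of the 5 low Landrace boars have sample numbers from 1 short run, called the common run here. The other 3 low boars and the Duroc boars have scattered numbers, and what the numbers stand for is not given in the sources used here.

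CA4 is an enzyme held on the outer face of the cell membrane by a lipid anchor, where it interconverts carbon dioxide and bicarbonate. It is known from the capillary endothelium of several organs and from kidney and other epithelia. SLC44A4 is a membrane protein of the choline transporter-like family that is best known from epithelia such as colon, where it takes up thiamine pyrophosphate. Bicarbonate is known to switch on the soluble adenylyl cyclase of sperm (ADCY10), and choline is a building block of membrane phospholipids.

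CA4 was low in abundance and more than 2-fold higher on average in high than in low DFI boars, in each breed. In Landrace low DFI boars 1 to 5, CA4 was at 0.705, 0.662, 1.94, 2.59 and 1.65 CPM (read counts scaled to library size with the trimmed mean of M values). The Landrace high DFI boars 1 to 4 had 2.49, 5.04, 2.9 and 2.25 CPM. The groups overlapped, since 2 of the 4 high boars lay above the highest low boar and 4 of the 5 low boars lay below the lowest high boar. In Duroc low DFI boars 1 to 5 the levels were 2.68, 0.91, 0.745, 1.21 and 1.55 CPM, and boar 1 stood above the other 4. The 6 Duroc high DFI boars ranged from 2.02 to 5.55 CPM with a median of 3.27 CPM, and 4 of the 6 exceeded every low boar. These levels rest on 27 to 230 reads per library.

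The mean level of CA4 was 1.51 ± 0.826 CPM (SD, n = 5) in Landrace low and 3.17 ± 1.28 (n = 4) in Landrace high, a ratio of 2.1. In Duroc it was 1.42 ± 0.769 (n = 5) in low and 3.35 ± 1.25 (n = 6) in high, a ratio of 2.36. The fitted log2 fold change of high against low was 1.07 (SE 0.40) in Landrace and 1.23 (SE 0.34) in Duroc. In whole tissue, more cells that carry a transcript and more transcript per cell cannot be told apart.

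SLC44A4 showed a difference of like size. The Landrace low DFI boars 1 to 5 had 2.57, 2.79, 3.59, 5.59 and 9.02 CPM, and the Landrace high DFI boars 1 to 4 had 7.74, 11.1, 10.4 and 13.1 CPM. Landrace low 5 was the only low boar within the range of the high boars, and 3 of the 4 high boars lay above it. The Duroc low DFI boars 1 to 5 had 2.73, 4.85, 1.1, 6.81 and 4.03 CPM, whereas the Duroc high DFI boars ranged from 5.04 to 13.7 CPM with a median of 7.69. Again 1 low boar (Duroc low 4) reached into the high range, and 5 of the 6 high boars exceeded every low boar. Reads per library ran from 40 to 661.

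Mean SLC44A4 was 4.71 ± 2.69 CPM (SD, n = 5) in Landrace low and 10.6 ± 2.2 (n = 4) in Landrace high, and 3.91 ± 2.16 (n = 5) in Duroc low and 8.68 ± 3.11 (n = 6) in Duroc high. The ratios of the means were 2.24 and 2.22, and the fitted log2 fold changes were 1.16 (SE 0.35) in Landrace and 1.15 (SE 0.38) in Duroc. The Duroc fold change less the Landrace fold change was 0.16 (SE 0.55) for CA4 and -0.01 (SE 0.56) for SLC44A4, so both breeds gave much the same point estimates with wide errors, and this difference was not tested.

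**Figure D1:**
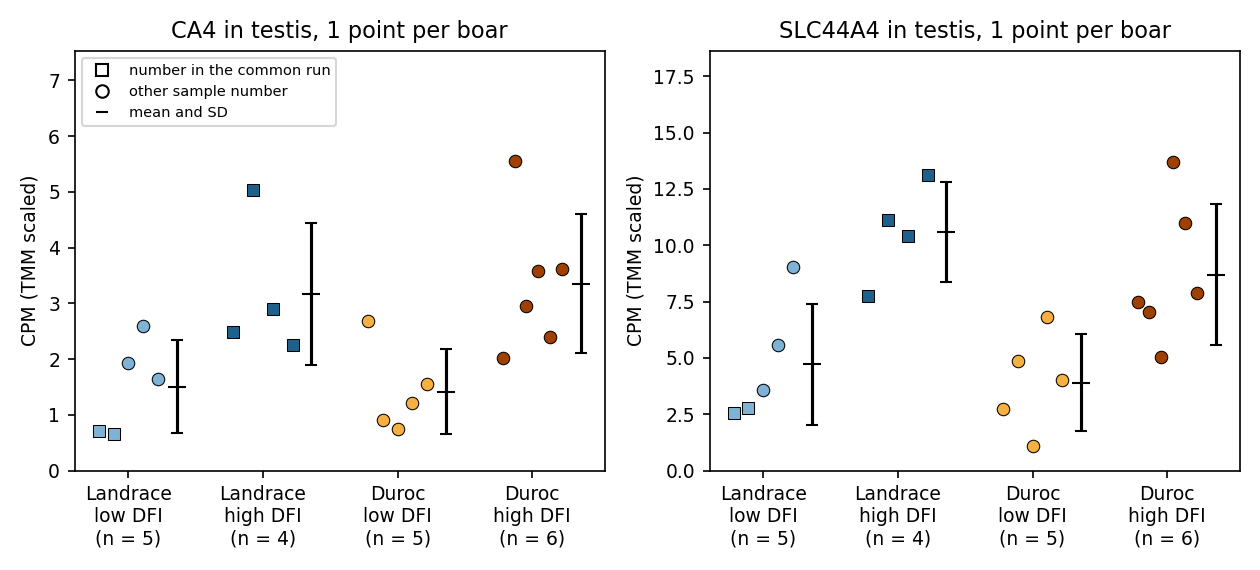
CPM of CA4 (left) and SLC44A4 (right) in each boar, by breed and DFI group; squares are boars of the common run of sample numbers, circles are other boars, and bars are the group mean and SD. The 2 Landrace low DFI squares have CA4 of 0.662 and 0.705 CPM, the lowest of that group.

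The size of the Landrace difference moved with the sample numbers. The 2 low DFI boars of the common run had a mean of 0.684 CPM for CA4, while the 3 with other numbers had 2.06 ± 0.481 (SD, n = 3). For SLC44A4 the same boars had means of 2.68 and 6.07 ± 2.75 CPM. Within the 6 boars of the common run the log2 fold change of high against low was 2.22 (SE 0.40) for CA4 and 1.99 (SE 0.24) for SLC44A4, and with the number series as a covariate it was 2.23 (SE 0.38) and 1.99 (SE 0.36). Without those 2 low boars it was 0.63 (SE 0.31) and 0.80 (SE 0.30). High DFI boars had the higher level in each case, with a size that depended on which low boars they were set against. The part of the sample numbers in the result was not tested.

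The breed comparison did not enter the choice of the genes and was tested with edgeR's quasi-likelihood F-test on all 14636 genes. In low DFI boars 4.92% of these genes differed between the breeds at an adjusted p under 0.05, and in high DFI boars 5.73% did. Neither CA4 nor SLC44A4 was among them. For CA4 the log2 difference of Duroc less Landrace was -0.09 (SE 0.40, adjusted p = 0.94) in low DFI boars, with a 95% interval from a fold of 0.529 to 1.67. In high DFI boars it was 0.07 (SE 0.39, adjusted p = 0.935), with folds from 0.601 to 1.84 in the interval. SLC44A4 gave -0.28 (SE 0.39, adjusted p = 0.778) in low and -0.29 (SE 0.38, adjusted p = 0.704) in high DFI boars, and the intervals ran from 0.47 to 1.45 and from 0.47 to 1.43. Breed differences within these intervals are compatible with the data, so the absence of a call does not show equal levels in the 2 breeds. Set against the 2 Landrace low boars of the common run alone, CA4 and SLC44A4 were higher in Duroc low boars by 1.05 and 0.54 on the log2 scale (adjusted p = 0.275 and 0.598), the opposite sign.

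In the order of the group means, CA4 ran from Duroc low through Landrace low and Landrace high to Duroc high, and SLC44A4 from Duroc low through Landrace low and Duroc high to Landrace high. The neighbours of the same DFI group in either order did not differ beyond the spread between boars. Both orders therefore placed the 2 low groups under the 2 high groups, which is the contrast used to choose the genes.

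Both genes varied widely among boars of one group. The biological coefficient of variation was 41.4% for CA4 and 42% for SLC44A4, against a median of 13.9% over all genes, and only 2.9% and 2.8% of genes had a higher one. Low genes vary more, but among the 1590 genes within 0.5 log2 units of the level of CA4 the median was still 20.1%, and 6.9% exceeded it. For SLC44A4 the corresponding values were 16.5% and 4.3% over 1908 genes. The biological coefficient leaves out counting error, which by itself would give 6.59 to 19.2% for CA4 and 3.89 to 15.8% for SLC44A4. The low DFI groups had the wider relative spread, with coefficients of variation of 54.8% and 54.1% for CA4 in Landrace and Duroc against 40.3% and 37.2% in the high groups, and of 57.0% and 55.2% for SLC44A4 against 20.9% and 35.8%, which was not tested.

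The 2 genes followed each other only weakly within groups. With the group means removed, log2(CPM + 0.5) of CA4 and SLC44A4 correlated with r = 0.27 over 20 boars (permutation within groups, two-sided p = 0.314, adjusted over 3 relations 0.372) and rho = 0.27 (permutation p = 0.33, adjusted 0.334). Without the 2 boars farthest from the median in CA4 r was 0.33 (permutation p = 0.209). Within Landrace r was 0.55 (n = 9, permutation p = 0.22) and within Duroc 0.07 (n = 11, permutation p = 0.851). With the means of the common run and of the other Landrace low boars removed separately, an alternative chosen after seeing the data, r was 0.03 (permutation p = 0.912, adjusted 0.912). The ratio of SLC44A4 to CA4 reads ran from 1.02 in Duroc low 1, the low boar with the highest CA4, to 5.81 in Landrace high 4. In the order of likeness to CA4 among 14635 genes, SLC44A4 stood at rank 3347.

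**Figure D2:**
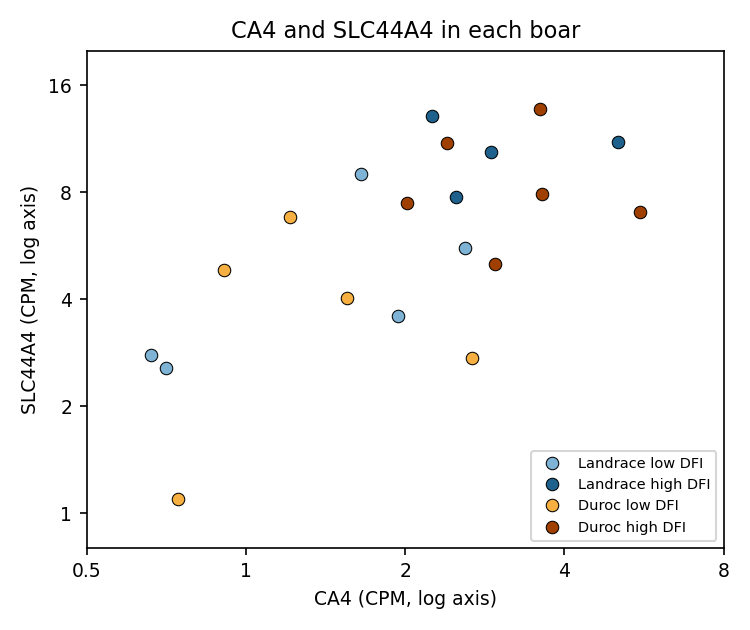
SLC44A4 against CA4 in CPM for each of the 20 boars, both on log axes, coloured by breed and DFI group. High DFI boars lie towards the upper right, and within a colour the points scatter widely (r = 0.27 with group means removed).

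Within groups, the relation of CA4 to DFI had a negative sign. DFI within a group is loosely measured, since the study lists several of these boars with a single ejaculate. For the Duroc low boars with more ejaculates, the SD between ejaculates exceeded the DFI range of that group. The same held for the Duroc high boar and for most Landrace high boars with more ejaculates, but not for the Landrace low boars. How far this error bears on the relations below was not tested. DFI was centred but not scaled within groups. The Landrace high boars, with the widest DFI range, therefore weighed most in r. The correlation of CA4 with the boar's DFI after removing group means was r = -0.41 (permutation within groups, p = 0.072, adjusted 0.216) and rho = -0.52 (permutation p = 0.0197, adjusted 0.0591), and neither passed after adjustment over the 3 relations. Without Landrace high 1 and 4 it was r = -0.57 (permutation p = 0.0242), and leaving out Landrace high 1 alone gave r = -0.61 (permutation, adjusted p = 0.0315). In the other 19 of the 20 runs without 1 boar the adjusted permutation p was not under 0.05 (up to 0.392). The r of CA4 with DFI was -0.50 in Landrace (n = 9, permutation p = 0.144) and -0.30 in Duroc (n = 11, permutation p = 0.395). In Landrace low the DFI and the sample numbers went together, since the 2 boars of the common run had DFI of 1.5 and 1.7% and the other 3 had 0.62 to 0.82%. With the means of these 2 sets removed separately, r of CA4 with DFI was -0.25 (permutation p = 0.375, adjusted 0.563) and rho was -0.24 (permutation p = 0.338, adjusted 0.508).

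For SLC44A4 the relation to DFI depended on the same step, and the same limit of the DFI values holds. The pooled values were r = 0.16 (permutation p = 0.372, adjusted 0.372), rho = 0.22 (permutation p = 0.334, adjusted 0.334) and r = 0.03 without the same 2 boars (permutation p = 0.908). Within Landrace r was -0.04 (n = 9, permutation p = 0.905) and within Duroc 0.41 (n = 11, permutation p = 0.0757), where rho was 0.61 (permutation p = 0.0311, adjusted 0.0932). With the 2 sets of Landrace low boars centred separately, r was 0.39 (permutation p = 0.00944, adjusted 0.0283) and rho 0.50 (permutation p = 0.0201, adjusted 0.0604), so that r passed the threshold and rho did not.

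Both genes are known from epithelia, and the epithelial markers were set beside them. Of 15 epithelial markers 10 were matched by symbol and 6 of these passed the filter. None of the 6 correlated above 0.5 with CA4 (median r 0.01) or SLC44A4 (median r 0.20). KRT18, ESRP1, ELF3 and SPINT1 were listed with too few reads to be kept. The summed level of all 10 matched epithelial markers was 47.3 to 59.8 CPM in Landrace low and 42.6 to 51.6 in Landrace high. In Duroc it was 31.3 to 77.4 in low and 45.1 to 74.8 in high, so that it overlapped between the DFI groups of both breeds. EPCAM, a cell adhesion protein of epithelia and germ cells, was at 24.7, 19.5, 16.2 and 11.1 CPM in Landrace low, Landrace high, Duroc low and Duroc high. Its r was 0.12 with CA4 and -0.05 with SLC44A4. Other epithelial genes had other directions. The adhesion protein CDH1 was at 1.09 and 2.06 CPM in Landrace low and high (log2 fold change 0.90, SE 0.42, adjusted p = 0.311) and at 2.24 and 1.75 in Duroc (-0.36, SE 0.14, adjusted p = 0.178), with r of -0.46 and 0.02. The keratin KRT8 was at 9.26 and 8.68 CPM in Landrace and 25 and 31.9 in Duroc, with r of -0.24 and 0.40. Of 15 markers of rete testis, efferent duct and epididymis 6 were matched by symbol and 3 of these were kept. None of the 3 correlated above 0.5 with either gene. All correlations of this kind share the same 20 libraries and are given as a description.

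CA4 varied with genes of blood vessel lining. Of 13 named endothelial markers 8 were matched by symbol, and all 8 were kept. All 8 correlated above 0.5 with CA4 once the group means were removed, with a median r of 0.66. Of all genes 6.71% did, with a median of -0.01. The adhesion molecule PECAM1 was the closest at 0.78, followed by the growth factor receptor KDR at 0.74, the angiopoietin receptor TEK at 0.70 and the junction protein ESAM at 0.67. PTPRB and ROBO4 were at 0.64, EGFL7 at 0.58 and TIE1 at 0.55. The median lay between 0.61 and 0.72 when any boar was left out, and it was 0.71 in Landrace and 0.73 in Duroc alone. In Landrace alone 6 of the 8 exceeded 0.5, beside 19.1% of all genes, and in Duroc alone 7 did, beside 6.84%. SLC44A4 had a median of 0.07 with the same 8 genes, and none of them exceeded 0.5. In Landrace alone its median was 0.29 and 2 of the 8 exceeded 0.5, and in Duroc alone it was -0.05 with 0 of 8.

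The 8 genes most like CA4 of the whole table were RAMP2 (r = 0.90), B3GNT3 (0.89), CLEC3B (0.88), EFNA1 (0.88), ECSCR (0.88), MMP2 (0.87), TGFBR2 (0.87) and ARRDC2 (0.87). RAMP2 forms the adrenomedullin receptor with a partner protein, ECSCR is an endothelial surface protein, EFNA1 is a ligand of Eph receptors, MMP2 is a matrix protease and TGFBR2 is a receptor of TGF-beta. None of these genes had been placed on a marker list. The r of RAMP2 stayed between 0.89 and 0.95 when any boar was left out.

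The summed endothelial level matched CA4 in some of the boars that stood out and not in others. Duroc low 1, with the highest CA4 of its group, had an endothelial sum of 150 CPM, the highest of the Duroc low boars, and Duroc low 3, with the lowest CA4, had 82.1 CPM. Duroc low 5 had a sum of 149 CPM with CA4 of 1.55 CPM, and Duroc high 4 had the lowest sum of its group, 120 CPM, with CA4 of 3.59 CPM. The Landrace low boars 1 and 2 had 79.1 and 75.7 CPM, under the 92.3 to 112 CPM of the other 3. Between DFI groups, the sum was 75.7 to 112 CPM in Landrace low and 102 to 183 in Landrace high, and 82.1 to 150 in Duroc low and 120 to 186 in Duroc high. In Landrace 6 of the 8 endothelial genes had a higher level in high DFI boars at an unadjusted p under 0.05, where 12.1% of all genes did, and in Duroc 1 of 8 had, where 11.3% did. The median log2 fold change of the list was 0.70 and 0.43, beside -0.01 and 0.01 over all genes. No gene of the list passed the adjusted threshold, which 0% of genes passed in Landrace and 0.0136% in Duroc. TEK was at 3.26 and 6.6 CPM in Landrace low and high (log2 fold change 1.02, adjusted p = 0.0984) and at 3.77 and 5.82 in Duroc (0.62, adjusted p = 0.239). Such a rise was not particular to the endothelial list. Of 7 peritubular and smooth muscle genes 6 were higher in Landrace and 1 in Duroc at an unadjusted p under 0.05, with medians of 0.58 and 0.37. Of 6 macrophage genes 2 and 1 were higher, with medians of 0.51 and 0.27, whereas 0 of 7 Sertoli cell genes were higher in either breed. The part of the endothelial level in the difference of CA4 was not tested.

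SLC44A4 varied with the genes of Leydig cells, the cells between the tubules that make testosterone. Of 8 named Leydig markers 5 were matched by symbol, and all 5 were kept. Of these, 3 correlated above 0.5 with SLC44A4, beside 2.57% of all genes, and the median r of the 5 was 0.54. INSL3, a peptide hormone, was at 0.55, and the steroid enzymes CYP11A1 and CYP17A1 were both at 0.54. The luteinising hormone receptor LHCGR was at 0.46 and the steroid enzyme HSD17B3 at 0.33. This likeness depended on single boars, with a median of 0.31 without Duroc low 3, the boar with the lowest SLC44A4 and the lowest Leydig sum (859 CPM), and of 0.65 without Duroc high 4. Without 1 boar 0 to 4 of the 5 genes exceeded 0.5. In Landrace alone the median was 0.39 and 1 of the 5 exceeded 0.5, beside 7.63% of all genes, and in Duroc alone it was 0.61 with 4 of 5, beside 9.63%. CA4 had a median of 0.25 with the same genes, and none exceeded 0.5.

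**Figure D3:**
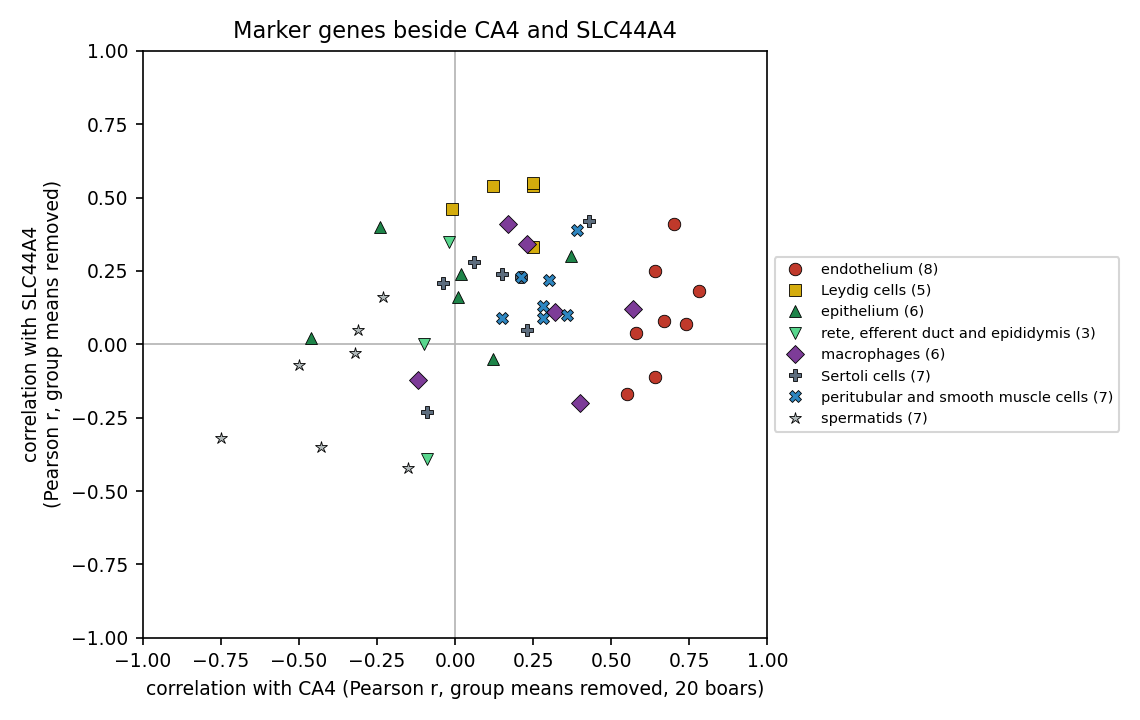
Pearson correlation of marker genes with CA4 (x axis) and with SLC44A4 (y axis) over 20 boars after removing group means; each point is 1 gene, its shape and colour give the marker list and the legend gives the number of genes kept. The 8 endothelial genes lie right of 0.5 on the CA4 axis, the Leydig genes lie between 0.33 and 0.55 on the SLC44A4 axis, and the epithelial genes lie between -0.46 and 0.37 on the CA4 axis and between -0.05 and 0.40 on the SLC44A4 axis.

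The Leydig sum was 1330 to 4200 CPM in Landrace low against 4580 to 12000 in Landrace high, and 859 to 6010 in Duroc low against 3430 to 7060 in Duroc high, so it did not overlap in Landrace. In Landrace 4 of the 5 genes were higher at an unadjusted p under 0.05 (median log2 fold change 1.24) and in Duroc 2 of 5 (0.75), beside 12.1% and 11.3% of all genes, with none past the adjusted threshold. LHCGR was higher in every high boar than in every low boar of both breeds, which 4.41% of all genes showed in Landrace and 2.02% in Duroc. Its means were 20 and 46.1 CPM in Landrace low and high (log2 fold change 1.21, adjusted p = 0.11) and 22.5 and 52.8 CPM in Duroc (1.23, adjusted p = 0.128). The part of these genes in the difference of SLC44A4 was not tested.

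The genes most like SLC44A4 were a different set, and the 100 most like CA4 and the 100 most like SLC44A4 shared 0 genes. They were ENSSSCG00000001515 (r = 0.80), FAM114A1 (0.79), NEU1 (0.75), PSAP (0.75), CNNM3 (0.75), F3 (0.72), MTNAP1 (0.71) and MXRA8 (0.71). NEU1 is a sialidase and PSAP the precursor of the saposins, both of lysosomes, and F3 is tissue factor, which starts blood clotting.

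NEU1 is also the annotated neighbour of SLC44A4 on one side, in a later assembly than that used for the counts. Its level was 8.42 ± 3.01 CPM in Landrace low and 20.4 ± 8.4 in Landrace high (log2 fold change 1.28, SE 0.30, adjusted p = 0.101), and 8.39 ± 4.64 and 16.7 ± 4.08 in Duroc (0.99, SE 0.35, adjusted p = 0.152). The neighbour on the other side is EHMT2, a histone methyltransferase. Its log2 fold change was -0.17 (SE 0.13) in Landrace and 0.06 (SE 0.07) in Duroc, and its r with SLC44A4 was -0.21. The r of NEU1 with SLC44A4 was 0.88 in Duroc and 0.51 in Landrace, and ranged from 0.62 to 0.83 when any boar was left out. The libraries were not stranded, so where the 2 genes overlap or adjoin their reads cannot be told apart by strand. MYO19, a myosin that is the only matched gene near CA4, had -0.06 (SE 0.18) in Landrace and -0.19 (SE 0.11) in Duroc.

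Among the other members of the SLC44 family, SLC44A2 and SLC44A1 had higher means in the high DFI boars and SLC44A3 and SLC44A5 had means close to those of the low boars, and none passed the adjusted threshold. SLC44A2, a choline transporter of many tissues, was at 74.6 ± 9.97 CPM in Landrace low and 114 ± 24.4 in Landrace high (log2 fold change 0.61, SE 0.14, adjusted p = 0.0998), and at 74.6 ± 15 and 105 ± 11 CPM in Duroc (0.49, SE 0.12, adjusted p = 0.113). Its groups did not overlap in either breed, beside 4.41% of all genes in Landrace and 2.02% in Duroc that were higher without overlap, and within groups its r with SLC44A4 was 0.60. SLC44A1 was at 5.77 and 9.79 CPM in Landrace without overlap (0.77, SE 0.18, adjusted p = 0.101) and at 6.73 and 8.36 CPM in Duroc (0.31, SE 0.18, adjusted p = 0.323). SLC44A3 had 0.13 (SE 0.20) and -0.19 (SE 0.11), and SLC44A5 0.01 (SE 0.09) and -0.08 (SE 0.11). Over the whole list of choline and thiamine genes, 3 of 15 were higher and 1 lower in Landrace at an unadjusted p under 0.05 and 2 of 16 were higher in Duroc, with median log2 fold changes of 0.07 and 0.01. Over all genes 12.1% were higher and 4.53% lower in Landrace and 11.3% were higher in Duroc, so the Duroc count was near the background. The choline transporter FLVCR1 was one of them in both breeds, with 0.75 (SE 0.24, adjusted p = 0.152) and 0.49 (SE 0.13, adjusted p = 0.113).

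None of the other carbonic anhydrases that were kept had a log2 fold change as large as that of CA4. Of 9 that were listed 5 were kept, and none was higher in high DFI boars of either breed at an unadjusted p under 0.05, while 1 was lower in each, beside 4.53% of all genes in Landrace and 9.89% in Duroc. CA2, the abundant enzyme of the cytosol, was at 135 and 118 CPM in Landrace low and high (log2 fold change -0.20, SE 0.10, adjusted p = 0.367) and at 145 and 109 in Duroc (-0.42, SE 0.17, adjusted p = 0.195). CA3 was at 57.7 and 41.2 CPM in Landrace (-0.48, SE 0.17, adjusted p = 0.172) and at 88.3 and 88.1 in Duroc. CA8 and CA11, which lack the enzyme activity, had -0.14 and -0.12 in Landrace and -0.15 and -0.27 in Duroc. CA13 had 0.28 and -0.04. CA6, CA10, CA12 and CA14 had 1 to 20 reads per library and were not kept.

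**Figure D4:**
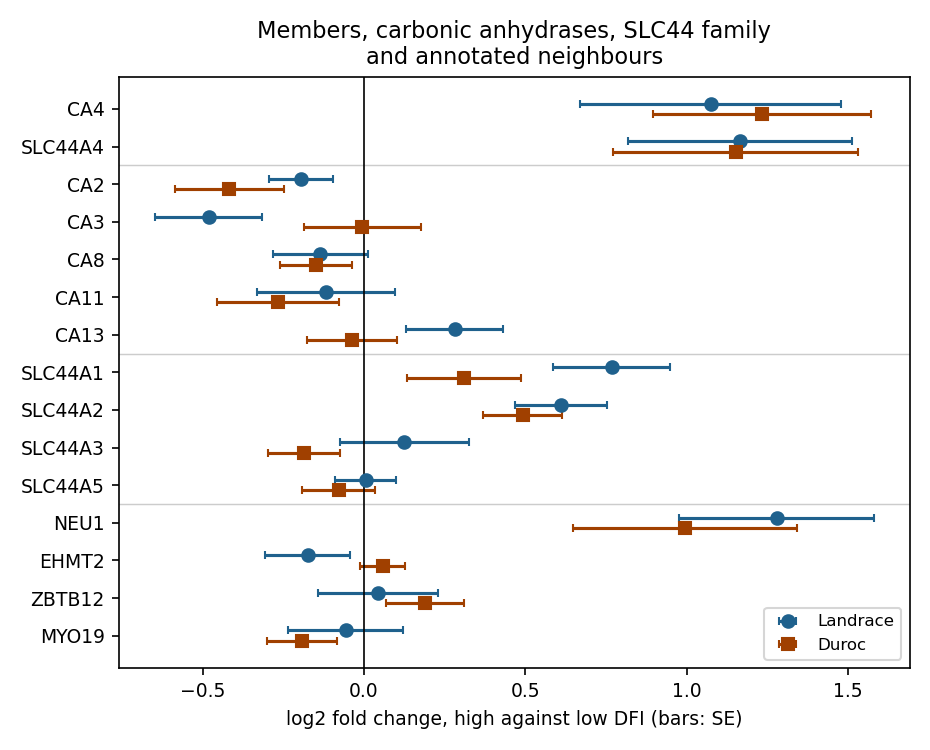
Log2 fold change of high against low DFI boars in Landrace (circles) and Duroc (squares) with SE bars, for CA4 and SLC44A4, the other carbonic anhydrases, the other SLC44 genes and the annotated neighbours. CA4 and SLC44A4 lie at 1.07 to 1.23, NEU1 at 0.99 and 1.28, and the other carbonic anhydrases at or below 0.28.

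The bicarbonate and proton list holds genes that move these ions and also the cyclase ADCY10, which does not. Its median log2 fold changes were -0.01 in Landrace and 0.04 in Duroc. In Landrace 1 of 16 was higher and 2 were lower at an unadjusted p under 0.05, and in Duroc 1 of 17 was higher and 1 lower. Over all genes 12.1% were higher and 4.53% lower in Landrace, and 11.3% and 9.89% in Duroc. ADCY10 was 1 of the 2 lower genes in Landrace and the 1 lower gene in Duroc. It had a log2 fold change of -0.18 (SE 0.07, adjusted p = 0.268) in Landrace and -0.24 (SE 0.07, adjusted p = 0.128) in Duroc. CFTR, a chloride and bicarbonate channel, had 1 to 5 reads per library.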

How the data were processed

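Testis RNA was sequenced as 1 library per boar. The authors mapped the reads to pig build 10.2 with TopHat2 2.0.12 and counted them per Ensembl gene with HTSeq without strand, and the deposited values are raw counts. The lowest value in the files is 1, and whether it stands for 0 is not given in the sources used here. DFI was taken from the labels, which differ slightly from the study's own listing for 4 Landrace boars.

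The analysis used edgeR 4.0.16 under R 4.3.3. A gene was kept where it exceeded 1 CPM in no fewer than 50% of a fit's boars, and libraries were scaled with TMM. DFI groups were compared per breed and breeds in a fit of all 20 boars, with the quasi-likelihood F-test and Benjamini-Hochberg adjusted p-values (threshold 0.05). The code was tested on simulated data. Correlations used log2(CPM + 0.5) less the group mean, with 100000 permutations within groups. Symbols came from a gene name table, which gave one for 11655 of the 21306 genes listed in both breeds, and neighbours from the RefSeq annotation. A named marker without a match by symbol is not shown to be absent from testis.

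CA4, SLC44A4 and the gene lists were chosen with earlier results of these data known. Named genes are both families, neighbours, the 8 most alike genes, and of each other list those with the smallest p or highest CPM, with others added where a count needed them. Alternatives were the likelihood ratio test, DESeq2 1.42.0, RLE scaling, no filter, values of 1 set to 0, the number series and each boar left out. P-values set a difference or a correlation against the spread between boars. The values of 1 gene on the bicarbonate and proton list are not reported here.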

Additional observations from a re-analysis of the deposited data

How the results depend on the processing

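The high against low values of CA4 and SLC44A4 kept their sign under every alternative run. Leaving out 1 boar gave 0.75 to 1.36 (Landrace) and 1.03 to 1.6 (Duroc) for CA4, and 1.01 to 1.54 and 0.91 to 1.44 for SLC44A4. In Landrace CA4 was 2.23 with the number series as a covariate and 2.22 in the 6 boars of the common run of sample numbers, and SLC44A4 was 1.99 in both. Leaving out the 2 low boars of these numbers, and the likeness by breed and without each boar, were alternatives chosen after seeing the data.

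The number of genes called depended on the tool. In Landrace it was 0, against 767 by the likelihood ratio test, 842 by DESeq2, 1 without the filter, and 0 to 2 without 1 boar (1 without low 1, 2 without low 3). At an unadjusted p under 0.05 it was 2417. In Duroc it was 2, against 376, 869 and 0, and 0 to 17 without 1 boar (17 without low 5, otherwise 0). Between breeds at low DFI it was 720, against 1095 by DESeq2, 358 without and 477 with only the Landrace low boars of the run, and 455 to 749 without 1 boar (455 without Landrace low 5, 461 without Landrace low 1). At high DFI it was 838, against 1377 by DESeq2 and 546 with only the 2 groups fitted. The cause was not tested.

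Of the breed differences, those at low DFI and that of CA4 at high DFI changed sign. At low DFI CA4 was 1.05 and SLC44A4 0.54 against the low boars of the run alone, and they ranged from -0.46 to 0.19 and from -0.57 to 0.1 without 1 boar. At high DFI CA4 ranged from -0.12 to 0.4, and SLC44A4 from -0.46 to -0.17, with no change of sign. No alternative gave a breed difference of either gene with an adjusted p under 0.05. The relation of CA4 to DFI ranged from -0.61 to -0.34 without 1 boar, and SLC44A4 to DFI was -0.04 in Landrace alone and 0.39 (permutation, adjusted p = 0.0283) with the number series as a further group, also chosen after seeing the data. The median likeness of CA4 to epithelium was -0.19 in Landrace alone and -0.09 to 0.08 without 1 boar, and that of SLC44A4 to endothelium was -0.05 in Duroc alone and -0.17 to 0.25 without 1 boar. No paired analysis was run, because each library came from a different boar and the labels give no pairing of boars. CA4 rested on as few as 27 reads in a library, which limits its precision.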

Other observations

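Of 16 bicarbonate and proton genes 1 passed the test between the breeds at each DFI level, and likewise 1 of 16 choline and thiamine genes. Over all genes 4.92% passed at low and 5.73% at high DFI, so both counts were near the background. SLC4A4, a sodium bicarbonate cotransporter, was at 2.84 ± 0.566 and 2.32 ± 0.481 CPM (SD) in Landrace low and high. In Duroc low and high it was at 15.2 ± 2.38 and 12.9 ± 11.4 CPM, with a wide spread in the high group. The log2 difference of Duroc less Landrace was 2.42 (adjusted p = 0.00394) at low and 2.49 (adjusted p = 0.00654) at high DFI by edgeR's quasi-likelihood test. SLC5A7, the high-affinity choline transporter of nerve endings, was at 0.403 ± 0.244 and 0.653 ± 0.538 CPM in Landrace low and high. In Duroc low and high it was at 4.47 ± 4.35 and 7.03 ± 5.08 CPM. By the same test its breed differences were 3.45 (adjusted p = 0.0101) at low and 3.34 (adjusted p = 0.0161) at high DFI. CA3 was higher in Duroc by 1.10 at high DFI (adjusted p = 0.00297), whereas at low DFI its difference was 0.61 (adjusted p = 0.0633).

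Spermatid genes had lower means in high DFI boars. Of 7 spermatid genes 3 were lower in high DFI boars in Landrace and 5 in Duroc at an unadjusted p under 0.05, and none was higher, with median log2 fold changes of -0.19 and -0.29. Over all genes 4.53% and 9.89% were lower. None passed the adjusted threshold. Their median r with CA4 within groups was -0.32 and with SLC44A4 -0.07. Lower levels were not particular to spermatid genes among germ cells. Of 5 spermatocyte genes 2 were lower in each breed at an unadjusted p under 0.05 and 0 were higher. Their median log2 fold changes were -0.11 and -0.12, and 0 passed the adjusted threshold. Of 7 Sertoli cell genes 0 differed in either breed at an unadjusted p under 0.05, beside 16.6% of all genes in Landrace and 21.2% in Duroc. Of 3 spermatogonial genes 0 differed, with medians of -0.12 and -0.01.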
